A study of Mus musculus with 6 samples.

Results

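The genes described here are 37 genes of fatty acid use: the peroxisome proliferator-activated receptors (PPARs) with their coactivators, some of their best known targets, the enzymes of fatty acid oxidation, and genes of ketone body and monocarboxylate handling. They were picked by symbol from a table of 18268 genes, and all 37 were found in it. Of these, 35 passed the filter on low values and were tested among 12072 genes. Their transcript levels were compared in colorectal tissue of 3 colitis mice that received berberine (BBR), a plant alkaloid, and 3 colitis mice that received sulfasalazine (SASP), an anti-inflammatory drug long in use for colitis. All 6 samples came from wild-type mice of the C57BL/6 strain, which per the study's methods were males of 8 to 10 weeks. All were given dextran sulfate sodium (DSS), which injures the gut lining, for 7 days. By the labels, the drug was given for 6 days. The study's text gives the route as gavage and the doses as 100 mg/kg for BBR and 200 mg/kg for SASP. Healthy mice and colitis mice without a drug were not analysed here, so a difference below is one between the drugs. The labels give the same tissue name to every sample, whereas the study's text speaks of rectal samples for its BBR sequencing and colon samples for its SASP sequencing. Drug and sampling site thus cannot be told apart if the sites differed. Nothing in the labels states how the samples of a group relate to each other beyond their treatment, so p-values measure the spread between these samples only.

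Fatty acids are carried into mitochondria as carnitine esters and shortened by repeated rounds of dehydrogenation, hydration, a further dehydrogenation and thiolysis, while peroxisomes shorten chains that mitochondria handle poorly. PPARs are ligand-activated nuclear receptors that bind DNA together with retinoid X receptors and raise many of these genes when fatty acids are plentiful. The colon epithelium is known for using butyrate, a short-chain fatty acid made by bacteria, as its main fuel, and part of it can be turned into ketone bodies.

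The levels are FPKM (fragments per kilobase of transcript scaled to mapped reads), which are corrected for length and can be set beside each other between genes. Between 11518 and 12307 genes were at 1 FPKM or more in each mouse. Across genes, log2(FPKM + 1) correlated at 0.987 between BBR mice 1 and 2 and at 0.949 to 0.953 between these and BBR mouse 3, so BBR mouse 3 stood apart in its group, while SASP mice correlated at 0.982 to 0.989. Pairs of a BBR and a SASP mouse correlated at 0.916 to 0.953, a range that holds the values of BBR mouse 3 within its own group. The 14 epithelial markers summed to 12084 to 16593 FPKM under BBR against 12643 to 13164 FPKM under SASP, and their defining gene Epcam was at 833 to 1101 FPKM. The list was not even between groups: Krt18 was called higher and Vil1 lower (log2 fold changes 0.75 and -0.55, limma adjusted p = 0.0163 and 0.0327), and Krt20 and Car1 did not overlap (-1.18 and 2.48, 0.0613 and 0.0950). The 16 smooth muscle markers summed to 3357, 3658 and 7772 FPKM in BBR mice 1, 2 and 3, and to 949 to 2801 FPKM in SASP mice, with no overlap between groups, and all 16 were higher on average under BBR, though 0 passed the test. The 8 adipocyte markers summed to 95.4 FPKM in BBR mouse 2 and 24.2 FPKM in SASP mouse 3, against 0.83 to 1.55 FPKM in the other 4 mice. Adipoq, their defining gene, was listed at 0 in 3 mice. Endothelial markers summed to 18.6 to 32.2 FPKM under BBR against 9.09 to 13.8 FPKM under SASP, leukocyte markers to 18.7 to 33.6 and 31.0 to 70.9 FPKM, and distal Hox genes to 204 to 401 and 239 to 290 FPKM. The endothelial sums did not overlap, and all 6 tested endothelial markers were higher on average under BBR. Of these, Emcn was called higher (log2 fold change 0.83, limma adjusted p = 0.0351). Skeletal muscle markers, 11 of 12 of which were in the table, summed to 7.36 to 21.7 FPKM over all mice. The part of these differences in the results below was not tested. In bulk tissue, fewer cells of a type and less RNA per cell cannot be told apart.

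Most of the 37 genes were well expressed. The tested genes of the set had a median level of 45.3 FPKM, against 10.01 FPKM over all genes tested. Slc25a20, the carnitine-acylcarnitine carrier of the inner mitochondrial membrane, had the highest mean over the 6 mice (263 FPKM), followed by the dehydrogenases Acadl (159 FPKM) and Hadh (126 FPKM), the transporter Slc16a1 (124 FPKM) and Hadhb (121 FPKM). At the other end, Fabp1, the liver fatty acid-binding protein gene, was listed at 0 in 4 mice and at 0.11 FPKM in SASP mice 1 and 2. Angptl4, which encodes an inhibitor of lipoprotein lipase, lay at 0.20, 0.77 and 0.56 FPKM under BBR against 0.24, 1.44 and 1.09 FPKM under SASP. These were the 2 genes that were not tested. Together the 37 genes held 0.383% to 0.514% of the summed FPKM of a sample.

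**Figure D1:**
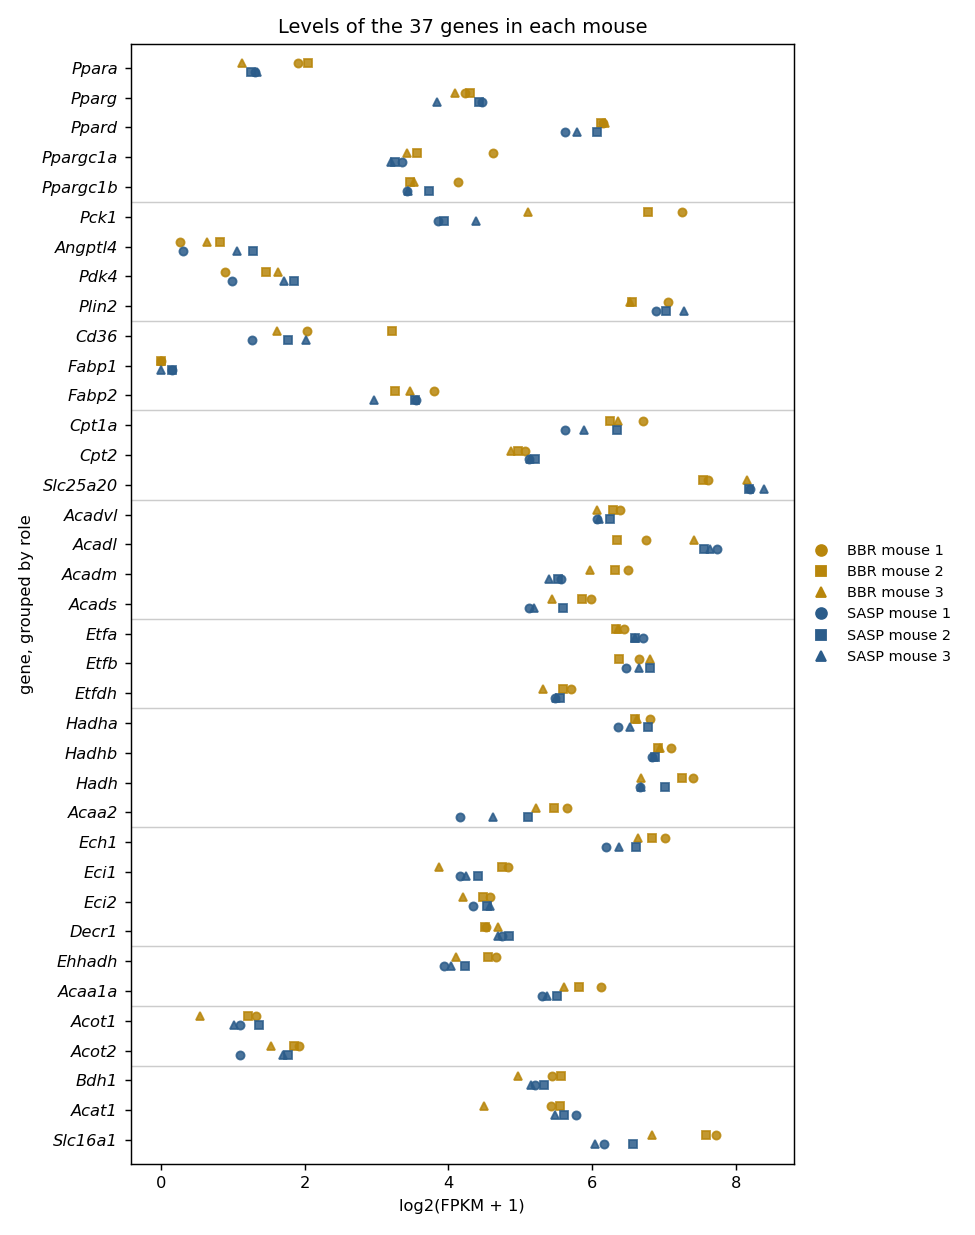
Level of each of the 37 genes in each mouse, as log2(FPKM + 1) on the x axis, with genes grouped by role between grey lines. Gold symbols are the 3 BBR mice and blue symbols the 3 SASP mice. Slc25a20 lies highest and Fabp1 lowest, and Pck1 shows the widest gap between the groups.

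Between the drugs, 3 of the 35 tested genes passed an adjusted p of 0.05 in limma, and all 3 were higher under BBR: Pck1, Slc16a1 and Acadm. This is 8.57% of the set, where 8.86% of all genes tested passed, so the share was near the background. The background was 3.82% for higher and 5.04% for lower genes, and 0 genes of the set passed as lower. At an unadjusted p of at most 0.05 in limma, 9 genes were higher and 3 lower, 34.3% of the set against 31.8% of all genes tested. The split of directions depended on scaling, with 7 higher and 6 lower after scaling by median ratios. For that scaling the split over all genes at this threshold was not computed. Log2 differences (BBR minus SASP, on log2(FPKM + 1)) were above 0 in 23 of the 35 genes and below 0 in 12. Their median was 0.16, against 0.10 over all genes tested, of which 60.8% lay above 0. In 9 genes the groups did not overlap and BBR was above, 25.7% of the set against a background of 21.3%. In 5 genes they lay below, 14.3% against 16.6%.

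**Figure D2:**
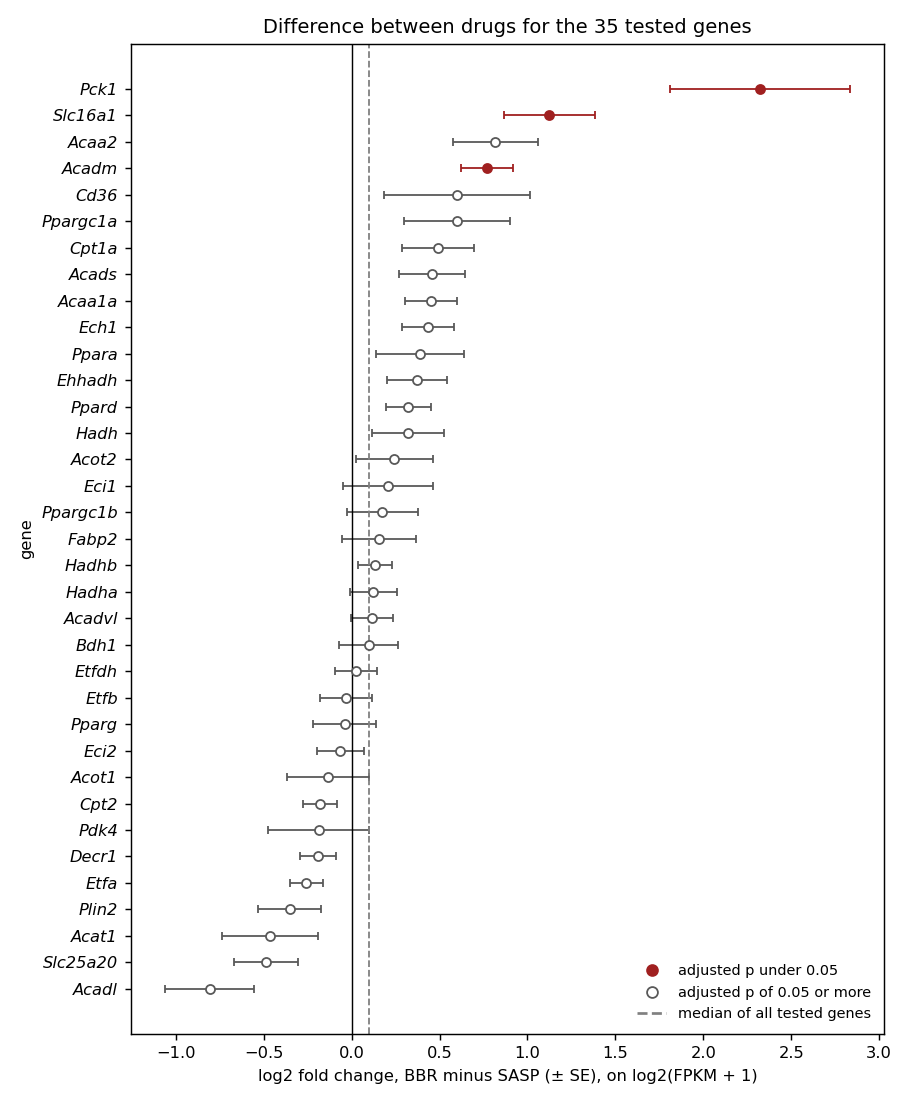
Log2 fold change of BBR against SASP with its standard error for the 35 tested genes, ordered by size. Filled red points mark Pck1, Slc16a1 and Acadm, which passed an adjusted p of 0.05; the dashed line is the median of all tested genes at 0.10.

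Pck1 (Gene ID 18534) encodes the cytosolic phosphoenolpyruvate carboxykinase, which feeds the making of glucose and of glycerol for lipid storage, and is a known PPAR target in fat. It was at 152, 109 and 33.6 FPKM in BBR mice 1, 2 and 3, and at 13.5, 14.35 and 19.8 FPKM in SASP mice. All BBR values lay above the SASP values, but BBR mouse 3 was far closer to them than BBR mice 1 and 2. The means were 97.9 ± 59.8 and 15.9 ± 3.43 FPKM (mean ± SD of 3 mice each). The limma difference, taken on log2(FPKM + 1), was 2.32 ± 0.51 (SE) with an adjusted p of 0.0410. The adipocyte markers summed to 1.17, 95.4 and 1.55 FPKM in BBR mice 1, 2 and 3 and to 0.83, 1.22 and 24.2 FPKM in SASP mice 1, 2 and 3, so the highest Pck1 value was in a mouse low in them under BBR and in the mouse high in them under SASP. Their part in the Pck1 levels was not tested.

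Slc16a1 (20501) encodes a proton-linked monocarboxylate transporter that carries butyrate, lactate and ketone bodies across the cell membrane. Levels were 211, 192 and 113 FPKM under BBR against 71.1, 94.2 and 64.6 FPKM under SASP, without overlap. Here too BBR mouse 3 was the lowest of its group. The means were 172 ± 52.2 and 76.6 ± 15.5 FPKM (mean ± SD of 3 mice each). The limma difference, taken on log2(FPKM + 1), was 1.13 ± 0.26 (SE) with an adjusted p of 0.0444.

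Acadm (11364), the medium-chain acyl-CoA dehydrogenase gene, was at 89.6, 78.6 and 62.0 FPKM under BBR against 46.4, 45.0 and 41.2 FPKM under SASP. The SASP mice were close to each other and all below BBR mouse 3. The means were 76.8 ± 13.9 and 44.2 ± 2.68 FPKM (mean ± SD of 3 mice each). The limma difference, taken on log2(FPKM + 1), was 0.77 ± 0.15 (SE) with an adjusted p of 0.0291.

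**Figure D3:**
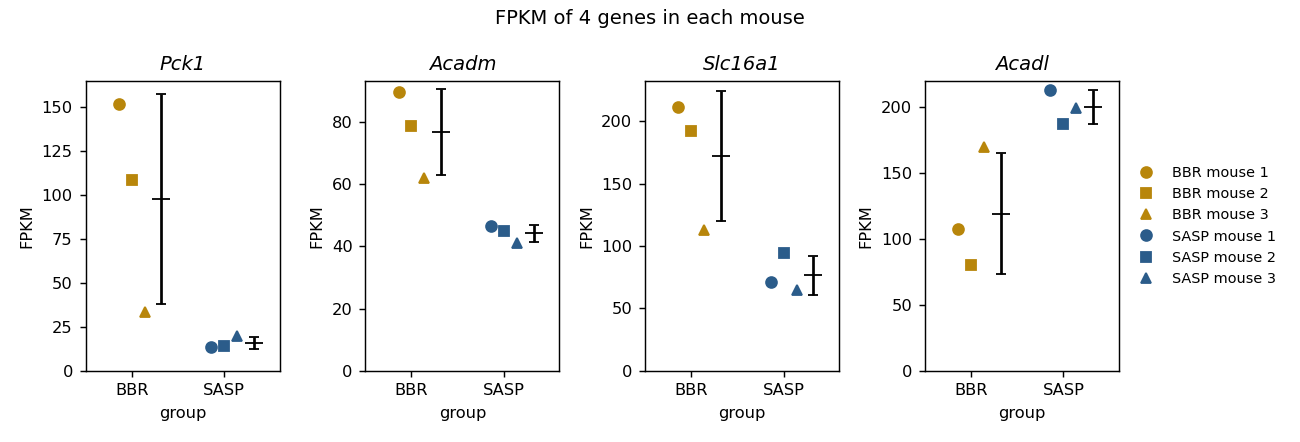
FPKM of Pck1, Acadm, Slc16a1 and Acadl in each mouse (y axes start at 0), with the mean and SD of each group in black. In all 4 panels the groups do not overlap and the triangle of BBR mouse 3 is the BBR value nearest to the SASP mice.

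The calls of these 3 genes rested on all of the mice but one. With BBR mouse 3 left out each kept its call, and with any other mouse left out each lost it. The range of adjusted p over those 5 fits was 0.0900 to 0.157 for Pck1, 0.0690 to 0.167 for Slc16a1 and 0.0747 to 0.126 for Acadm, although the log2 fold changes stayed at 1.88 to 2.48, 0.95 to 1.28 and 0.65 to 0.80. Over all genes, the count that passed fell from 1069 with all mice to between 51 and 405 in those 5 fits. Each gene also lost its call when a score of smooth muscle markers entered the fit (log2 fold changes of 3.07, 1.37 and 1.02). With that score 0.282% of all genes tested passed, and the summed smooth muscle markers did not overlap between groups. The part of smooth muscle in these 3 calls was not tested. With no filter on low values Pck1 and Slc16a1 lost their calls. Slc16a1 also did with an epithelial score (1.33, limma adjusted p = 0.0503), where Pck1 and Acadm kept theirs.

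The promoter windows of the 3 called genes are shown because all 3 were higher under BBR. The set was also built around a family of DNA-binding receptors. Sequences are from RefSeq on GRCm38.p6, 250 bases before to 50 after the start of the transcript, 5′ to 3′ on the strand of the gene. Capitals mark matches, on either strand, to the PPAR and retinoid X receptor element AGGTCANAGGTCA, its single hexamer AGGTCA, the estrogen-related receptor site TCAAGGTCA, the core TGACG of the cAMP response element, and the E-box CACGTG. The hexamer is also part of both longer receptor sites. Pck1 lies at chr2:173152823-173153122 on the plus strand, Acadm at chr3:153944594-153944893 on the minus strand and Slc16a1 at chr3:104638414-104638713 on the plus strand.
Pck1: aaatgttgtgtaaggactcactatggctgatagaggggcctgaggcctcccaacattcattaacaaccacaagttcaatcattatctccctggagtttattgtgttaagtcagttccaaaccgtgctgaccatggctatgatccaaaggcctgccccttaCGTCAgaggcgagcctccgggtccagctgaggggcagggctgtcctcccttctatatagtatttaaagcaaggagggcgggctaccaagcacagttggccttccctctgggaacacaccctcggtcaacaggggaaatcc
Acadm: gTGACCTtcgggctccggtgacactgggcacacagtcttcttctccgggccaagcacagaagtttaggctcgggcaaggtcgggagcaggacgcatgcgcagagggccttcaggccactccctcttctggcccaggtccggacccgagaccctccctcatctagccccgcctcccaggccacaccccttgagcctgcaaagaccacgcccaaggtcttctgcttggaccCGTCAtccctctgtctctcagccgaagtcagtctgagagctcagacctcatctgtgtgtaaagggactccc
Slc16a1: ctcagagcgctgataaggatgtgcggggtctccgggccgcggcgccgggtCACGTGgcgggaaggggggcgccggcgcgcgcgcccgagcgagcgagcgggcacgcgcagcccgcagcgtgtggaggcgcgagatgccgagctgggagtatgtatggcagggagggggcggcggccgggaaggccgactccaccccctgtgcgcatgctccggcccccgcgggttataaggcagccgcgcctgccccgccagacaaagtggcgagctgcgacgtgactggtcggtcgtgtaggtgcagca

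The 3 windows had different matches. In Pck1 the cAMP core began 90 bases before the start, within the promoter of a gene long known to respond to cAMP. Acadm held the single hexamer, 249 bases before the start, and a cAMP core 21 bases before it. Slc16a1 held an E-box 200 bases before its start. A window was found for 32 of the 37 genes, with 35 windows in all. A gene counts as matched below when any of its windows matched, while the shares over all windows are per window. The complete receptor element matched 0 of these genes and 0.0396% of all 32851 windows, and the estrogen-related receptor site 0 and 0.423%. The hexamer matched 7 genes (Acadm, Acadvl, Cd36, Cpt1a, Fabp1, Plin2 and Pparg; 16.3% of all windows), the cAMP core 9 (20.8%) and the E-box 2, Plin2 and Slc16a1 (7.15%). These are matches of letters in short windows only.

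Among the receptors, Ppard was the most abundant. This gene, whose product is widespread in gut epithelium, was at 70.2, 68.9 and 71.4 FPKM under BBR against 48.5, 65.9 and 54.6 FPKM under SASP, so the groups did not overlap (log2 difference 0.32, limma adjusted p = 0.137). Pparg, the receptor of fat storage that is also high in colonocytes, was at 17.8, 18.6 and 16.1 FPKM under BBR against 21.1, 20.5 and 13.4 FPKM under SASP. The groups overlapped fully, and the log2 difference was -0.04 (adjusted p = 0.894 in limma). Ppara, the main receptor of fatty acid oxidation in liver, was low, at 2.76, 3.14 and 1.18 FPKM under BBR against 1.49, 1.39 and 1.54 FPKM under SASP. BBR mouse 3 had the lowest value of all mice and BBR mice 1 and 2 the highest, and the log2 difference of 0.39 did not pass (adjusted p = 0.311 in limma).

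The coactivator Ppargc1a, known for driving mitochondrial gene programs, was at 23.6, 10.8 and 9.77 FPKM under BBR against 9.20, 8.53 and 8.24 FPKM under SASP. All BBR values lay above, and BBR mouse 1 set the size of the difference (0.60, limma adjusted p = 0.216; 0.22 without BBR mouse 1). Its relative Ppargc1b was at 16.6, 10.01 and 10.55 FPKM under BBR against 9.77, 12.3 and 9.83 FPKM under SASP, with overlap (0.18, adjusted p = 0.576). Again BBR mouse 1 was the highest, and without it the difference was -0.039.

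Apart from Pck1, PPAR targets outside the oxidation pathway did not pass. Plin2, which coats lipid droplets, averaged 106 ± 23.3 FPKM under BBR against 134 ± 18.6 FPKM under SASP (mean ± SD of 3 mice each; log2 difference -0.35, limma adjusted p = 0.218). Pdk4, a kinase that shuts pyruvate out of the citrate cycle, was low at 0.86 to 2.09 FPKM under BBR against 0.98 to 2.60 FPKM under SASP. Thus the set held a target far higher under BBR than under SASP beside targets whose groups overlapped.

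Of the genes of fatty acid uptake and binding, Cd36, a scavenger receptor found on endothelium, fat and macrophages, had the smallest p. It was at 3.10, 8.30 and 2.06 FPKM under BBR against 1.42, 2.41 and 3.05 FPKM under SASP (log2 difference 0.60, limma adjusted p = 0.345). The highest value of each group was in the mouse with adipocyte markers, BBR mouse 2 and SASP mouse 3. Endothelial markers also had their highest sum of each group in these mice, at 32.2 and 13.8 FPKM. The part of either cell type in the Cd36 levels was not tested. Fabp2, the intestinal fatty acid-binding protein gene, lay at 8.57 to 12.9 FPKM under BBR against 6.84 to 10.7 FPKM under SASP.

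The genes of the carnitine shuttle had no common direction. Cpt1a makes the carnitine esters at the outer membrane and is the controlled step of long-chain oxidation. It averaged 86.9 ± 14.8 FPKM under BBR against 62.3 ± 16.3 FPKM under SASP, with overlap (mean ± SD of 3 mice each; log2 difference 0.49, limma adjusted p = 0.155). Slc25a20, the carrier of the inner membrane, was at 195, 185 and 284 FPKM under BBR against 293, 289 and 335 FPKM under SASP. Every BBR value was below every SASP value, BBR mouse 3 by little, and the log2 difference of -0.49 had an adjusted p of 0.121 in limma. Cpt2, which frees the acyl-CoA inside, was at 28.4 to 32.6 FPKM under BBR against 33.7 to 35.9 FPKM under SASP, also without overlap (-0.18, adjusted p = 0.235).

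The acyl-CoA dehydrogenases, which open each round of oxidation, were not alike. Acadm was higher under BBR, as given above. Acadl, the long-chain enzyme gene, was at 107, 80.3 and 169 FPKM under BBR against 213, 187 and 199 FPKM under SASP. All BBR values lay below, with BBR mouse 3 nearest to the SASP mice, but the log2 difference of -0.81 (SE 0.25) missed the threshold (limma adjusted p = 0.0846). With the epithelial score in the fit Acadl was called lower (-1.13, limma adjusted p = 0.0442). Acads, for short chains, averaged 54.0 ± 10.4 and 39.0 ± 7.40 FPKM, and Acadvl, for very long chains, 75.6 ± 8.61 and 69.6 ± 5.08 FPKM (mean ± SD of 3 mice each). Their log2 differences of 0.46 and 0.11 did not pass (adjusted p = 0.148 and 0.527 in limma).

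Because 2 genes set against each other within a sample do not depend on how the sample was scaled, the ratio of Acadl to Acadm was computed, a pair chosen after their values were seen and given without a test. It was 1.196, 1.02 and 2.73 in BBR mice 1, 2 and 3, and 4.58, 4.15 and 4.84 in SASP mice. Transcripts of both enzymes were thus near parity in BBR mice 1 and 2, whereas those of Acadl were in clear excess in SASP mice.

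Electrons from these enzymes pass through the electron transfer flavoprotein and its dehydrogenase. Etfa, the alpha subunit gene, was at 86.3, 79.6 and 81.5 FPKM under BBR against 104, 96.3 and 96.3 FPKM under SASP, without overlap (log2 difference -0.26, limma adjusted p = 0.111). The other subunit gene Etfb and the dehydrogenase gene Etfdh overlapped, with differences of -0.03 and 0.03.

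Of the enzymes that complete the round, Acaa2, the mitochondrial thiolase gene, differed most. It was at 49.4, 43.2 and 36.4 FPKM under BBR against 17.0, 33.5 and 23.6 FPKM under SASP. The groups were apart by a small margin, between BBR mouse 3 and SASP mouse 2, and the log2 difference of 0.82 (SE 0.24) did not pass (limma adjusted p = 0.0746). Hadha and Hadhb encode the subunits of the trifunctional protein, and their promoter windows share 228 bases, as the genes are read in opposite directions from neighbouring starts. They averaged 102 ± 8.49 and 126 ± 8.77 FPKM under BBR against 93.7 ± 13.7 and 115 ± 2.11 FPKM under SASP (mean ± SD of 3 mice each). Their differences were alike at 0.12 and 0.13, and the ratio of Hadha to Hadhb was 0.798 to 0.817 in BBR and 0.723 to 0.927 in SASP mice. Hadh, the dehydrogenase of short chains, averaged 141 ± 34.5 and 111 ± 15.8 FPKM, with overlap (0.32, adjusted p = 0.313 in limma).

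Unsaturated chains need helper enzymes. Ech1, an isomerase gene, was at 128, 114 and 98.8 FPKM under BBR against 72.1, 96.9 and 82.35 FPKM under SASP, apart by a narrow margin (log2 difference 0.44, limma adjusted p = 0.1004). Decr1, the dienoyl-CoA reductase gene, was on the other side, with 21.7 to 24.75 FPKM under BBR, below 24.84 to 27.65 FPKM under SASP (-0.19, adjusted p = 0.239). Eci1 and Eci2, isomerases for other double bonds, overlapped (0.21 and -0.06).

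In peroxisomes, Acaa1a, a thiolase gene, was at 68.7, 55.4 and 48.1 FPKM under BBR against 38.5, 44.75 and 40.6 FPKM under SASP, without overlap (log2 difference 0.45, limma adjusted p = 0.0903). Ehhadh, the bifunctional enzyme and a strong PPAR target in liver, averaged 21.1 ± 4.30 and 15.9 ± 1.76 FPKM (mean ± SD of 3 mice each; 0.37, adjusted p = 0.183 in limma). Both peroxisomal genes thus leaned to BBR without a call.

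The acyl-CoA thioesterase genes Acot1 and Acot2 were low. Acot2 was at 2.78, 2.63 and 1.89 FPKM under BBR against 1.15, 2.41 and 2.26 FPKM under SASP (log2 difference 0.24, limma adjusted p = 0.464), and Acot1 was at 0.46 to 1.58 FPKM over all mice. As close paralogs, they share similar reads, so their separate levels are uncertain.

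Of the ketone body genes, Bdh1, which interconverts acetoacetate and beta-hydroxybutyrate, averaged 39.8 ± 8.41 FPKM under BBR against 36.6 ± 2.50 FPKM under SASP (mean ± SD of 3 mice each; log2 difference 0.10, limma adjusted p = 0.712). Acat1, the thiolase of ketone body synthesis and use, averaged 36.5 ± 13.1 and 48.5 ± 4.92 FPKM (-0.46, adjusted p = 0.274 in limma), with BBR mouse 3 lowest at 21.6 FPKM. Of the genes in this group, the transporter gene Slc16a1 was the one that passed. Its chaperone Bsg overlapped between groups, at 371 to 455 FPKM under BBR against 324 to 413 FPKM under SASP. Slc5a8, a sodium-coupled butyrate transporter, also overlapped, at 77.7 to 125 and 93.4 to 111 FPKM. Both were named after their values were seen.

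BBR mouse 3 weighed on many of these results. On the log2 scale it was nearer to the SASP mean than to the mean of the other BBR mice in 25 of the 35 tested genes (71.4%), and in 51.1% of all genes tested. When it was left out, 13 of the 35 genes passed in limma (37.1%), where 33.8% of all genes tested passed. Besides Pck1, Slc16a1 and Acadm these were Ppara, Acads, Acaa2, Ech1, Eci1, Ehhadh, Acaa1a and Hadh as higher and Acadl and Slc25a20 as lower. Acadl then had a log2 fold change of -1.09 (limma adjusted p = 0.00428) and Slc25a20 of -0.68 (0.00602). The same mouse had the highest smooth muscle sum of all mice. In the limma fits that left out any other single mouse, 0 of the 35 genes passed. Of the 35, 5 to 11 had an unadjusted p of at most 0.05. The share of all genes at that unadjusted threshold was not computed for these fits. Over all genes, 51 of 11917 (without SASP mouse 3) to 405 of 11899 (without SASP mouse 2) passed in these fits. With all mice 1069 of 12072 passed, so the loss of calls was not particular to the set.

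**Figure D4:**
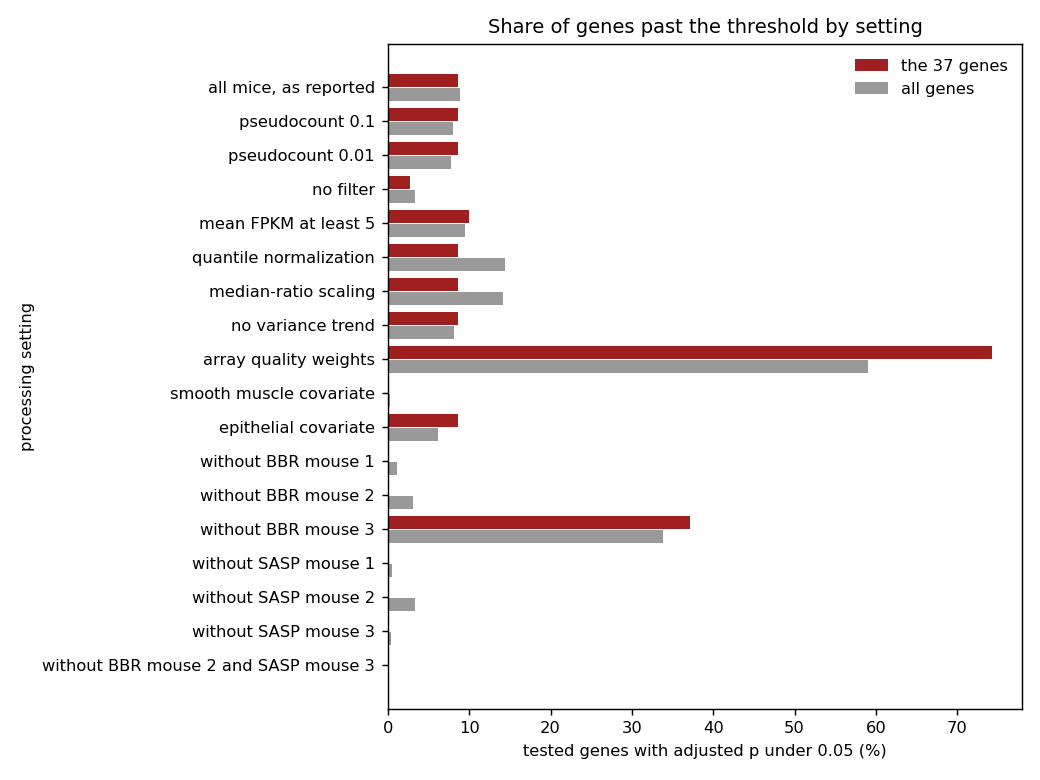
Percent of tested genes past an adjusted p of 0.05 under each processing setting (y axis), for the 37 genes in red and for all genes in grey. The share of the set is 0 when any single mouse but BBR mouse 3 is left out and with the smooth muscle covariate, 37.1% without BBR mouse 3 and 74.3% with array quality weights, where 59.0% of all genes pass.

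A further 88 genes of the pathway, listed by role, gave 71 tested genes. Of these, 3 passed as higher and 1 as lower in limma (5.63% together, against the background of 8.86%). All 4 were among the 9 tested genes that activate or take up acyl chains. Acsl3, a long-chain acyl-CoA synthetase of the endoplasmic reticulum and lipid droplets, was at 126, 115 and 84.8 FPKM under BBR against 39.6, 33.1 and 33.4 FPKM under SASP. BBR values were far above, by 1.58 ± 0.17 (SE) on the log2 scale with an adjusted p of 0.00644 in limma. Acsl5, the synthetase gene typical of gut epithelium, went the other way, at 37.9, 39.9 and 30.8 FPKM under BBR against 72.5, 59.1 and 59.9 FPKM under SASP (-0.80, SE 0.14, adjusted p = 0.0224 in limma). Acss1, which activates acetate in mitochondria, was at 28.3, 23.9 and 24.8 FPKM under BBR against 14.6, 15.3 and 13.5 FPKM under SASP (0.78, SE 0.11, adjusted p = 0.0143 in limma). The remaining call, named after its values were seen, was Acsm3, a medium-chain synthetase gene, at 53.9 ± 8.39 and 27.6 ± 9.73 FPKM (mean ± SD of 3 mice each; 0.98, adjusted p = 0.0499 in limma). With single mice left out, Acsl3 lost its call without SASP mouse 3 (adjusted p = 0.0523), and Acsl5 did so without BBR mouse 1 and without each SASP mouse. The mice whose removal ended the call were BBR mouse 1 with SASP mice 1 and 3 for Acss1, each taken singly, and BBR mice 1 and 2 with SASP mice 1 and 3 for Acsm3. The smooth muscle score ended the calls of Acsl5, Acss1 and Acsm3, in a fit where 0.282% of all genes tested passed. Acsm3 lost its call in 12 of 17 alternatives in all, among them both lower pseudocounts, no filter, a mean of at least 5 FPKM, no variance trend and the epithelial score.

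Within samples, the ratio of Acsl3 to Acsl5, a pair again chosen after seeing the values and not tested, was 3.34, 2.87 and 2.76 in BBR mice 1, 2 and 3. In SASP mice it was 0.547, 0.560 and 0.558. The more abundant synthetase of the pair was thus Acsl3 in every BBR mouse, BBR mouse 3 included, and Acsl5 in every SASP mouse.

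**Figure D5:**
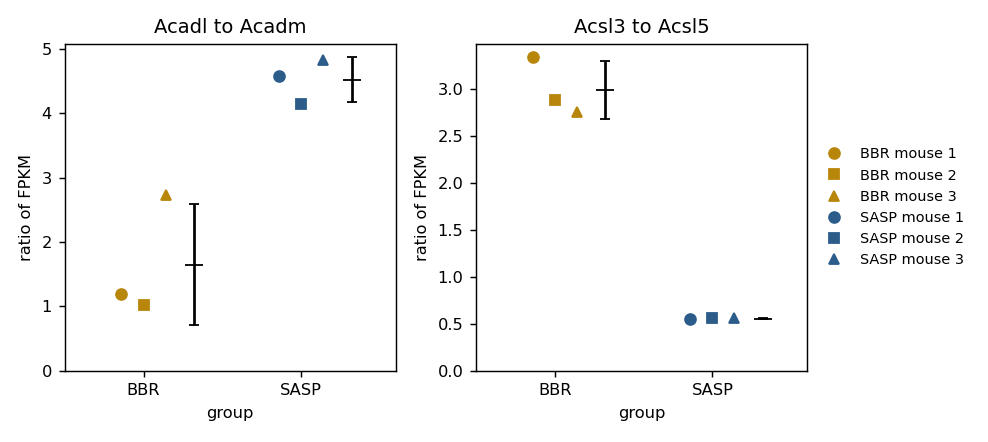
Ratio of FPKM of 2 genes within each mouse, for Acadl to Acadm and for Acsl3 to Acsl5 (y axes start at 0), with group mean and SD in black. SASP mice lie at 4.15 to 4.84 in the left panel and at 0.547 to 0.560 in the right panel, and BBR mice at 1.02 to 2.73 and at 2.76 to 3.34.

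In the other pathway lists 0 genes passed in limma. The medians of the log2 differences were 0.11 for 10 tested retinoid X receptor and coregulator genes, 0.23 for 10 other mitochondrial oxidation genes and -0.046 for 14 other peroxisomal genes. They were 0.12 for 8 other ketone body and butyrate genes and 0.24 for 20 other PPAR targets and lipid droplet genes, beside 0.10 for all genes. The lowest adjusted p of each list in limma was 0.0671, 0.0656, 0.103, 0.124 and 0.0647. An unadjusted p of at most 0.05 was reached by 2 of 10, 4 of 10, 1 of 14, 1 of 8 and 6 of 20 tested genes. Of all genes tested, 31.8% reached it.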

How the data were processed

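Colorectal RNA of 6 mice was sequenced. Per the study's methods, ribosomal RNA was depleted and single-end reads were aligned with Bowtie2 2.2.5 and quantified with RSEM 1.2.12; the submitters' processing notes name build mm9. The labels name another library kit. The authors deposited FPKM per gene and sample, and read totals were not analysed here. From these values log2(FPKM + 1) was computed, and genes that reached 1 FPKM in 3 or more samples were tested with limma 3.58.1 (R 4.3.3; two-sided, mean-variance trend, Benjamini-Hochberg adjustment over all genes tested, threshold 0.05). Count models need counts and were not fitted. On this scale log2 differences understate changes of low genes. An exact permutation test of 3 against 3 cannot pass 0.05, so none was used. Fits were tested on simulated data. Replicate numbers follow accession order and pair no mice. Every gene of the set is reported; mouse values are given for called genes, receptors, coactivators and the smallest p of each role, and up to 3 called genes per other list are named. The genes and lists were chosen with earlier results of these data known, so no list was tested. Alternatives covered pseudocounts, filters, scaling, variance trend, weights, covariates and left-out mice.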

Additional observations from a re-analysis of the deposited data

How the results depend on the processing

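The count of called genes in the set, 3 with all mice, was 1 with no filter, 26 with array quality weights (21 higher, 5 lower), 0 with the smooth muscle covariate (8 at an unadjusted p of at most 0.05) and 12 at an unadjusted p of at most 0.05 (34.3% of the set, 31.8% of all genes). It ranged from 0 to 13 over the fits without 1 mouse, the highest without BBR mouse 3, and was 0 without BBR mouse 2 and SASP mouse 3, an alternative chosen after seeing the data because both held adipocyte markers (3 at an unadjusted p of at most 0.05). The count over all genes, 1069 (461 higher, 608 lower), was 608 with no filter, 1737 (743 and 994) after quantile normalization, 1713 (631 and 1082) after scaling by median ratios, 7126 (4636 and 2490) with array quality weights, 34 with the smooth muscle covariate and 3837 at the unadjusted threshold. It ranged from 51 to 4018 without 1 mouse and was 24 without both mice. The share of all genes at the unadjusted threshold was computed only for the fit with all mice. The 4 other pathway genes became 42 with array quality weights, 1 with the smooth muscle covariate, 0 to 19 without 1 mouse and 0 without both. The median of the set stayed above 0, at 0.044 to 0.27 over all alternatives. Some differences changed sign, most of them small, but that of Acat1 was -0.46 with all mice. With array quality weights Pparg was at 0.25, Eci2 at 0.018 and Acot1 at 0.23. With the smooth muscle covariate Pparg was at 0.14, Acot1 at 0.10 and Acat1 at 0.054, and with the epithelial covariate Pparg at 0.077 and Acot1 at 0.060. Etfb was at 0.016 with quantile normalization and 0.088 without both mice, Etfdh at -0.063 with median-ratio scaling and -0.014 without both, and Bdh1 at -0.066 without both. Over the fits without 1 mouse, Pparg ranged from -0.24 to 0.069, Ppargc1b from -0.039 to 0.30, Pdk4 from -0.45 to 0.029, Fabp2 from -0.031 to 0.28, Etfb from -0.13 to 0.085, Etfdh from -0.055 to 0.14, Eci2 from -0.14 to 0.043, Acot1 from -0.28 to 0.11 (-0.30, its usual sign, without both mice) and Bdh1 from -0.025 to 0.28. The cause of these shifts was not tested. No paired analysis was possible because the labels give the groups no shared replicate numbers.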
